A study of Drosophila melanogaster with 2 samples.

Results

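MicroRNA genes of Drosophila melanogaster were examined for H3K27ac peaks in pupal wings. The members were all genes of the Release 6 annotation (dm6) whose symbol begins with mir-, which gave 262 of 17872 annotated genes. A single position on the 6 chromosome arms X, 2L, 2R, 3L, 3R and 4 was available for 260 of them, and mir-10404-1 and mir-10404-2, which the annotation places on both sex chromosomes, were not analysed. The 260 genes were 50 to 174 bp long, with a median of 92 bp.

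A microRNA is cut from a hairpin within a longer primary transcript, which Drosha and Dicer enzymes process in turn, and the mature strand is loaded into an Argonaute protein that represses messenger RNAs carrying matching sites. The hairpin may lie in an intron of a protein-coding host gene, in a long noncoding RNA, or in a transcript of its own, and neighbouring hairpins are often cut from 1 primary transcript. Acetylation of lysine 27 of histone H3 (H3K27ac) marks active promoters and enhancers, so that a peak near a hairpin can belong to the start of its primary transcript, to an enhancer, or to a neighbouring gene.

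The samples were 2 biological replicates of a single group, the pupal wings of males of line D2, a transgenic line, taken at 67% of pupal development, with 35 to 45 wings pooled in each replicate. No second genotype, stage or treatment was analysed here, and the transgene of the line is carried by both replicates. Nuclei from wings crosslinked for 1 min were profiled by CUT&RUN, in which an antibody (1 µl, against H3K27ac) directs a nuclease to cut out the bound chromatin. The peak lists of the replicates differed in length, with 14461 peaks covering 5.06 Mb in replicate 1 and 26420 peaks covering 8.11 Mb in replicate 2. Chromosome X held 1334 and 1446 of these peaks. As a check of the tissue, made after the data had been seen, 4 wing genes (vg, nub, ap and sd) were looked up. A peak in the gene or within 2 kb was present in both lists at 4 of 4. The same rule was met by 60.8% of the 17424 annotated genes other than microRNA genes on the arms. No genes of other tissues were looked up in this check, so it says little about tissue identity. The files give peaks and no read totals, so that a gene without a peak is not listed above the caller's threshold and has no level of its own.

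A microRNA gene was called marked when a peak overlapped its span or the 2 kb on either side in both lists. By this rule 106 of 260 microRNA genes (40.8%) were marked, against 29.5% of 133639 positions of the same median length laid every 1 kb along the arms. A peak was present at 116 genes (44.6%) in replicate 1, against 31.8% of positions, and at 157 genes (60.4%) in replicate 2, against 48.1% of positions. Replicate 1 alone had a peak at 10 genes and replicate 2 alone at 51, while 93 genes had none in either list. At 94 of the 106 marked genes, peaks of the replicates overlapped each other. The other annotated genes, which are mostly longer and therefore present a wider window, were marked in 60.8% of 17424 cases. Among short noncoding genes, tRNA genes were marked in 41.4% of 290 cases and snoRNA genes in 57.2% of 269. With 1 group of 2 replicates there was no test between conditions, and none of the differences between shares given here was tested.

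Neighbouring microRNA genes share peaks and are not independent of each other. Joined into loci wherever no more than 10 kb separated them, the 260 genes formed 198 loci, of which 85 (42.9%) were marked at 1 gene or more. Single genes made up 171 loci, 72 of them marked, and 27 loci held 2 or more genes, 13 of them marked.

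The position of the hairpin relative to protein-coding genes divided the members into 166 that lay inside a gene span, 92 that lay outside any, and 2 that crossed the edge of one. Inside protein-coding genes 68 of 166 microRNA genes (41.0%) were marked, against 33.9% of positions inside such genes. Outside them 36 of 92 (39.1%) were marked, against 19.5% of positions outside. Counted by locus the shares were close, with 60 of 140 wholly intragenic loci (42.9%) and 23 of 54 wholly intergenic loci (42.6%) marked. The 2 genes at an edge, mir-11182 at CG5726 and mir-4942 at ND-MLRQ, were both marked. The annotation used gives gene spans without exons or strand, so that introns, exons and untranslated regions are not told apart here.

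**Figure D1:**
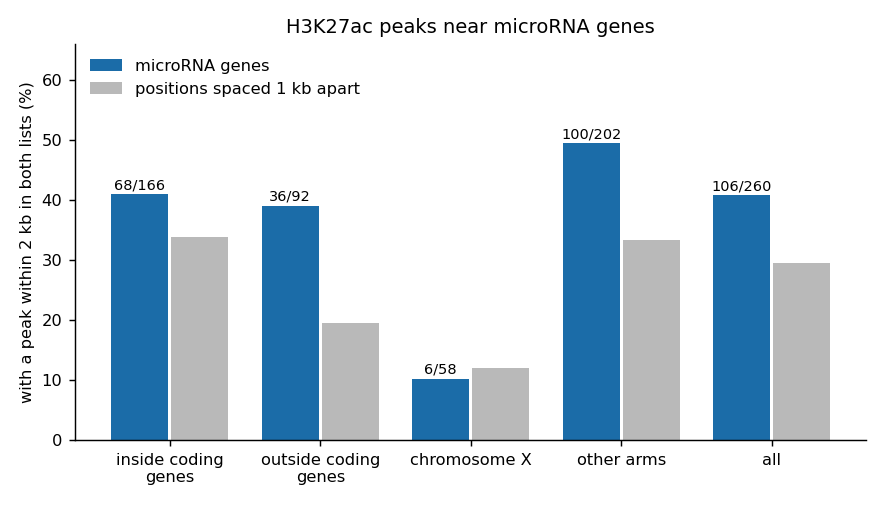
Share of microRNA genes (blue, with marked and total numbers above the bars) and of positions spaced 1 kb apart (grey) that had a peak within 2 kb in both lists, in percent, by class. The blue bar is higher than the grey bar in each class except chromosome X, where 6 of 58 microRNA genes (10.3%) were marked, against 12.0% of positions.

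The chromosome arm divided the members as well. On X 6 of 58 microRNA genes (10.3%) were marked, against 12.0% of positions on X. On the other arms 100 of 202 (49.5%) were marked, against 33.3% of positions there. The shares were 28 of 56 on 2L, 30 of 55 on 2R, 16 of 31 on 3L, 25 of 58 on 3R and 1 of 2 on chromosome 4. Leaving X out, 63 of 127 intragenic microRNA genes (49.6%) were marked, against 38.3% of positions inside protein-coding genes, and 35 of 73 intergenic ones (47.9%), against 22.2% of positions outside. The wings were male and carry a single X, and the part of X dosage in its lower peak number was not tested. The 6 marked genes on X were mir-980 in CG3777, mir-4961 in ssx, mir-4962 in Tlk, mir-9377 in Tis11, mir-4965 in Nup153 and the intergenic mir-2496.

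Peaks seldom covered the hairpin itself. The gene span was touched by a peak in both lists at 15 genes (5.77%), against 3.33% of positions, and 12 of the 15 were intragenic. As the window grew from 0 through 500 bp, 1 kb, 2 kb and 5 kb, the share of intragenic microRNA genes with a peak in both lists was 7.23%, 20.5%, 27.7%, 41.0% and 65.1%, against 3.84%, 12.8%, 20.8%, 33.9% and 54.6% of positions inside protein-coding genes. The intergenic microRNA genes gave 3.26%, 6.52%, 13.0%, 39.1% and 60.9%, against 2.08%, 7.79%, 12.3%, 19.5% and 32.1% of positions outside. Intergenic microRNA genes thus stood close to their positions up to 1 kb and above them from 2 kb on, with 12 genes at 1 kb and 36 at 2 kb. Clustered genes that share peaks count singly in this step. They include 6 genes of the mir-309 cluster and 3 of the let-7 complex, and the step was not counted by intergenic locus. Most marked genes therefore had their peaks in the flanks, which make up most of the window. The same held for positions, of which 3.33% were covered and 29.5% had a peak within 2 kb in both lists.

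**Figure D2:**
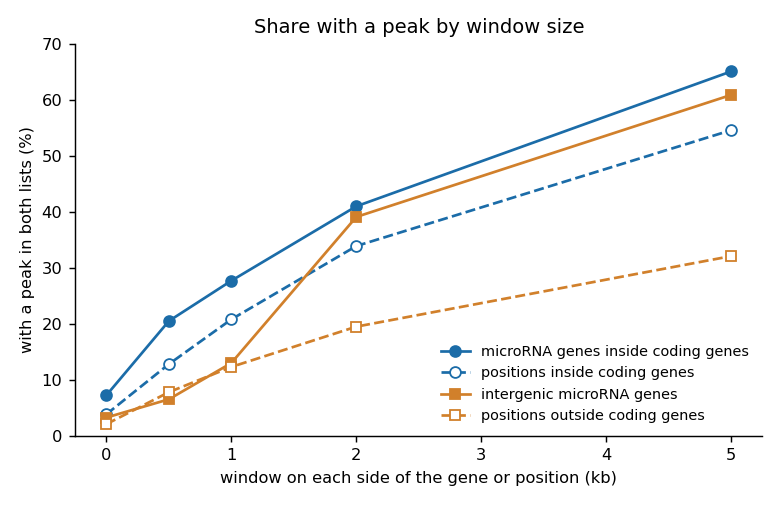
Share with a peak in both lists, in percent, against the window on each side in kb, for intragenic microRNA genes (filled blue circles), positions inside protein-coding genes (open blue circles), intergenic microRNA genes (filled orange squares) and positions outside (open orange squares). The intergenic share was 13.0% at 1 kb and 39.1% at 2 kb, against 12.3% and 19.5% of positions outside. Shares are by gene, and clustered genes that share a peak count singly.

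Of the peaks within 2 kb of a microRNA gene, 46.5% in replicate 1 and 38.3% in replicate 2 reached within 500 bp of an end of a protein-coding gene, against 35.3% and 32.3% of the other peaks on the arms. When only peaks more than 500 bp from any end of a protein-coding gene were kept, 58 microRNA genes (22.3%) had such a peak within 2 kb in both lists, against 19.1% of positions. They comprised 36 intragenic and 22 intergenic genes. Within the intergenic class, 29 of 57 genes (50.9%) with a protein-coding gene within 2 kb were marked, and 7 of 35 (20.0%) without one. Of all positions outside protein-coding genes 19.5% were marked, and positions were not split by distance to a gene. Chromosome X and genes sharing a peak were not set apart in this split.

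The 166 intragenic microRNA genes lay in 148 host genes, 133 of which held 1 microRNA gene and 15 held 2 or more. An end of the host was marked in both lists, by a peak within 500 bp, at 67 of the 148 hosts (45.3%), against 39.3% of the other protein-coding genes. Where the host had a marked end, 46 of 74 microRNA genes (62.2%) were marked, and where it had none, 22 of 92 (23.9%). These calls are not independent, since the peak near a hairpin can be the one at the host end. An example is mir-308 in RpS23, a host 1532 bp long. Positions inside protein-coding genes were not split in this way, so the contrast is not read as a trait of microRNA genes.

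The 5 hosts that held the most microRNA genes were either marked at each hairpin or at none. The hairpins of each of these hosts lie within 2 kb of each other, so their windows overlap and their calls are not independent. In grp, which encodes the checkpoint kinase Chk1, 4 of 4 genes were marked, namely mir-9c, mir-306, mir-79 and mir-9b. The hairpin of mir-306 (chr2L:16698404-16698488) was covered over its whole 85 bp in both lists. The covering peak stood 2.55 fold over background in replicate 1, and 2.20 fold in replicate 2. The strongest peak within its window was another, of 2.99 and 3.11 fold, which reached an end of grp with summits 1744 and 1736 bp away. The fold is the peak caller's value, the fragment pileup at the summit over the local background, and belongs to the authors' call. In spi, which encodes the epidermal growth factor receptor ligand Spitz, 3 of 3 genes were marked, mir-2a-1, mir-2a-2 and mir-2b-2, by a peak of 2.45 and 2.57 fold that reached an end of a protein-coding gene. DIP-theta, which encodes an immunoglobulin-type cell surface protein of neurons, held 6 genes, mir-959 to mir-964, and 0 were marked. CG3626 and Gmap, both on X, held 3 genes each, and 0 of each were marked. Replicate 1 had a single peak of 2.36 fold within 2 kb of the CG3626 genes mir-983-1, mir-983-2 and mir-984, and replicate 2 had none.

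The intergenic microRNA genes were divided again by whether an annotated noncoding gene overlaps them, since many such genes are the primary transcripts themselves. Of 44 that overlap one, 23 (52.3%) were marked, and of 48 in no annotated gene, 13 (27.1%), against 19.5% of positions outside protein-coding genes. Chromosome X held 1 of the 44, unmarked, and 18 of the 48, of which 1 was marked. On the other arms the counts were 23 of 43 (53.5%) and 12 of 30, against 22.2% of positions outside. When the whole noncoding gene and 2 kb on each side were searched instead, a setting chosen after seeing the data, a peak was found in both lists for 33 of the 44 microRNA genes (75.0%). Of the long noncoding and antisense RNA genes outside protein-coding genes that hold no intergenic microRNA gene, 43.3% of 1684 met the same rule. The 44 microRNA genes share hosts, and both groups span a wide range of lengths, so these shares are set side by side only.

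The let-7 complex was among the most strongly marked microRNA loci. It holds mir-100 (chr2L:18471434-18471533), mir-let7 (chr2L:18472034-18472111) and mir-125 (chr2L:18472315-18472424), which are cut from a single primary transcript, annotated as lncRNA:let7C. Ecdysone, the moulting hormone, is known to induce this transcript at metamorphosis, and its microRNAs act in the timing of juvenile to adult transitions. The nearest peak to mir-100 had a fold of 3.43 in replicate 1 and 3.02 in replicate 2, at percentiles 92.8 and 95.4 of the 2 lists. Its summit lay 1614 and 1615 bp from the hairpin, inside lncRNA:let7C, and it reached no end of a protein-coding gene. The replicates thus placed the summit within 1 bp of each other. The same peak fell in the window of mir-let7, while mir-125 was within 2 kb of a weaker peak of 1.92 fold in replicate 1. Over the whole of lncRNA:let7C and 2 kb on each side there were 6 peaks in replicate 1 and 9 in replicate 2.

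The other marked members of the ecdysone and metamorphosis list had lower peaks. In all, 7 of its 8 genes were marked, against 40.8% of all microRNA genes, in 5 of 6 loci, against 42.9% of all loci. The list has 0 genes on X, and on the other arms 49.5% of all microRNA genes were marked. mir-14, which limits cell death and acts on ecdysone receptor levels, had peaks of 1.92 and 1.65 fold. mir-8, a regulator of growth and of Wingless signalling, had 1.73 and 2.15 fold within 2 kb, and the highest peaks inside its noncoding host lncRNA:CR43650 had 3.06 and 2.71 fold. mir-965, in the chromatin remodeller gene kis, had 1.81 and 1.79 fold, from peaks that did not overlap between the replicates. mir-34, known from ageing and from repression by ecdysone, had 1.91 fold in replicate 1 and 2.24 fold in replicate 2, from peaks that did not overlap. For mir-252 a peak of 2.35 fold was present in replicate 2, and replicate 1 had none within 8055 bp.

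**Figure D3:**
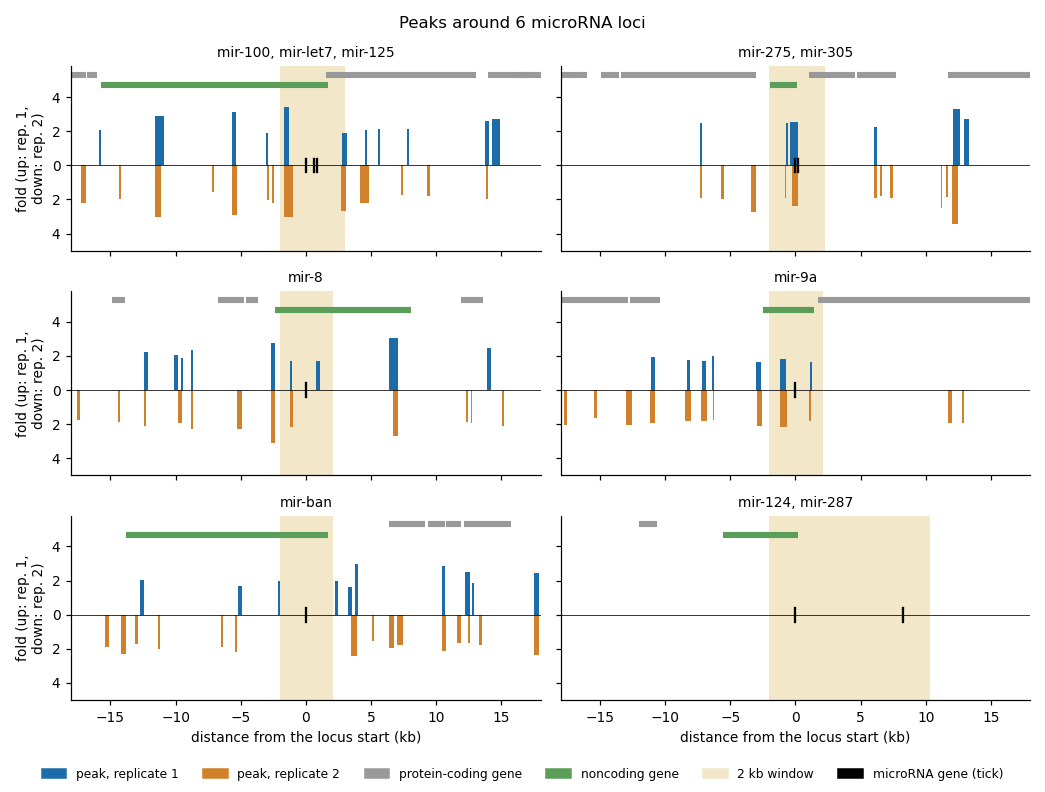
Peaks around 6 microRNA loci, with the distance from the locus start in kb on the horizontal axis and the fold of each peak on the vertical axis, replicate 1 upward (blue) and replicate 2 downward (orange). Ticks mark microRNA genes, shading the 2 kb window, green bars the overlapping noncoding genes and grey bars protein-coding genes. Both replicates have a peak beside the let-7 complex and over mir-275, replicate 2 has none within 2 kb of mir-ban, and no peak lies in the panel of mir-124.

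The list of microRNAs with roles in wing growth, margin, bristles and epithelial survival held 26 genes in 17 loci. Of these, 16 genes (61.5%) in 10 loci were marked, against 40.8% of all microRNA genes and 42.9% of all loci. Chromosome X held 4 of the 26, and on the other arms 49.5% of all microRNA genes were marked. mir-275 (chr2L:7425795-7425892) and mir-305 are cut from a common transcript. The peak at mir-275 covered its 98 bp in both lists, with a fold of 2.52 in replicate 1 and 2.37 in replicate 2, and summits 155 and 143 bp from the hairpin. mir-9a (chr3L:19565131-19565208), which restrains the proneural gene senseless at the wing margin, had 2 peaks in each list, with a highest fold of 1.79 and 2.14. These peaks lie within lncRNA:CR45916, and those of the replicates overlapped.

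The mir-2 and mir-13 family, which represses the pro-apoptotic genes reaper, grim and sickle, is spread over several loci. Of its 8 listed genes 7 were marked, against 40.8% of all microRNA genes and 49.5% of those on the arms other than X. These calls came from 3 of 4 loci, since the genes in spi share a peak and so do those in lncRNA:CR45911. mir-2b-1, in Btk, had 2.71 and 3.04 fold, from a peak that reached the ends of CG8086 and Btk in both lists. mir-2c, mir-13a and mir-13b-1, which lie together in lncRNA:CR45911, had 2.50 fold in replicate 1 and 1.67 fold in replicate 2, from peaks that did not overlap. mir-13b-2, in CCT2 on X, had a peak of 1.99 fold in replicate 2 and none in replicate 1. mir-11 and mir-998, in the cell cycle gene E2f1 whose pro-apoptotic output mir-11 limits, had 2.34 and 2.57 fold, and mir-998 itself was partly covered in both lists. mir-bft, the bereft gene that protects bristle cells of sense organs from death, had 2.42 and 2.72 fold.

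Other marked genes of the wing list were mir-278, mir-315 and mir-92b. mir-278, which represses the growth inhibitor expanded, had 2.38 fold in replicate 1 and 2.43 fold in replicate 2. mir-315, which activates Wingless signalling when overexpressed, had 2.16 and 2.13 fold. mir-92b, in jigr1, had 1.87 and 1.95 fold from peaks that did not overlap, and its neighbour mir-92a was not marked, with nearest summits at 2504 and 2517 bp.

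The bantam microRNA, mir-ban, which promotes growth and represses the death gene hid, was not marked. Replicate 1 had a peak of 1.97 fold at 2096 bp, whose edge reached into the window, while the nearest summit of replicate 2 was at 3808 bp, with 2.45 fold. That replicate 2 peak overlapped a replicate 1 peak of 2.98 fold, and both lie outside the window. Inside lncRNA:CR43334, the noncoding host of mir-ban, there were 3 peaks in replicate 1 and 4 in replicate 2. Of these, 0 overlapped a peak of the other list. mir-7, in HnRNP-K, and mir-279 had a peak in replicate 2 alone, of 2.00 and 1.65 fold. mir-263b in meru, mir-184 and the X-linked mir-12, mir-283 and mir-304 of Gmap had none in either list.

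**Figure D4:**
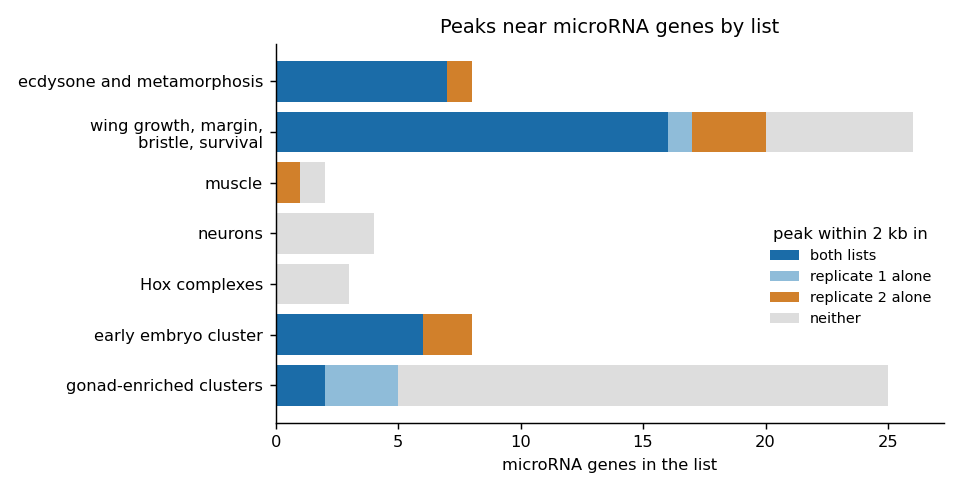
Number of microRNA genes per list (horizontal axis) with a peak within 2 kb in both lists (dark blue), in replicate 1 alone (light blue), in replicate 2 alone (orange) or in neither (grey). The ecdysone list has 7 of 8 genes in both lists, the wing list 16 of 26 and the gonad list 2 of 25.

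The muscle, neuron and Hox complex lists held 0 marked genes, against 40.8% of all microRNA genes and 29.5% of positions. Of the muscle genes mir-1 and mir-133, 0 of 2 were marked, with a peak of 2.28 fold near mir-1 in replicate 2 alone. The noncoding host of mir-133, lncRNA:CR44909, had 1 peak inside it in replicate 1, of 2.90 fold, and 2 in replicate 2, of up to 2.45 fold. The highest lay 22101 and 22143 bp from the lower end of the host, and 1 peak of each list overlapped a peak of the other. Of the neuronal genes mir-124, mir-137, mir-210 and mir-1000, 0 of 4 were marked or had a peak in either list, and the nearest summits to mir-124 were at 54862 and 25792 bp. Of the Hox complex genes mir-10, mir-iab-4 and mir-iab-8, 0 of 3 were marked, with nearest summits to mir-10 at 2923 and 2754 bp. Its noncoding host lncRNA:CR42651 had 1 peak inside it in replicate 1 and 2 in replicate 2, with 2.83 and 2.84 fold as the highest, 3709 and 3735 bp from its lower end. mir-iab-4 and mir-iab-8 have the same span on opposite strands, and the peaks carry no strand.

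Of 25 genes in clusters known from gonads 2 were marked, against 40.8% of all microRNA genes, and 13 of the 25 lie on X, the arm with few peaks. The cluster of mir-972 to mir-979 on X held 12 microRNA genes, the most of any locus, and had 0 peaks in either list. The mir-310 cluster on 2R held 7 genes, and mir-991 and mir-992 at its end were marked by peaks of 2.12 and 1.69 fold that reached the ends of Nnf1a or HnRNP-K and did not overlap between replicates. mir-959 to mir-964, the 6 genes in DIP-theta, had 0 peaks within 2 kb. The X cluster of mir-982, mir-303, mir-983-1, mir-983-2 and mir-984 had 1 peak, in replicate 1.

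The mir-309 cluster, which clears maternal messenger RNAs in the early embryo, was marked at 6 of 8 genes. It lies on 2R within lncRNA:CR44504 and forms 1 locus, so that the 6 calls rest on the same peak. This peak had a fold of 3.20 in replicate 1 and 2.64 in replicate 2, with its summit 1498 and 1437 bp from mir-309. It reached the ends of the protein-coding genes CG11018 and hrg. mir-6-2 and mir-6-3, farther from it, had a peak within 2 kb in replicate 2 alone.

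Further intergenic loci had peaks that reached no protein-coding gene end. mir-317, mir-277 and mir-34 lie in 1 locus, where mir-277 had a peak in replicate 1 alone. The highest peaks near mir-317 had 2.34 fold in replicate 1 and 2.49 fold in replicate 2. These highest peaks were different ones, with summits 1557 and 39 bp from the hairpin, and a lower peak of replicate 2 overlapped the replicate 1 peak. mir-316, in lncRNA:CR45920, had 3.28 and 2.52 fold as the highest, from different peaks with summits 129 and 1064 bp away on opposite sides. Among all peaks within 2 kb of mir-316, some of the replicates did overlap. Replicate 1 covered the whole microRNA gene, and replicate 2 had no peak inside lncRNA:CR45920. mir-285, in no annotated gene, had 2.23 and 1.96 fold with summits 152 and 144 bp from the hairpin. mir-276a had 1.74 and 2.14 fold within 2 kb as the highest, from peaks on opposite sides of the gene. A lower peak of replicate 2 overlapped the replicate 1 peak. Its long host lncRNA:CR46006 had 11 peaks inside it in replicate 1 and 13 in replicate 2, up to 4.14 and 3.83 fold. The highest of them lay 3584 and 3420 bp from the lower end of the host, which is 43950 bp long, and outside the window of the hairpin.

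The remaining loci of this kind had peaks of moderate height. mir-282 had 2.15 and 1.93 fold, and mir-955 had 2.23 and 2.37 fold. mir-4951, in lncRNA:Hsromega, the heat shock RNA, had 2.07 and 2.09 fold, with summits 654 and 657 bp from it. mir-989, known from border cells of the ovary, had 2.13 and 2.05 fold from peaks on opposite sides of the gene.

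Other intergenic loci shared their peak with the end of a coding gene. mir-954 (chr4:626126-626212) was covered over its 87 bp in both lists by a peak of 3.73 and 3.94 fold that reached the end of mav, a gene for a TGF-beta type ligand. mir-193 had 3.60 and 2.65 fold with an end of EMC10 in reach, and mir-31a had 3.64 and 2.74 fold with CG33981 and fab1. mir-994 and mir-318 had 2.95 and 2.37 fold near CG6325, and mir-2496 had 2.70 and 2.73 fold over the gene near east. At these loci the peak cannot be assigned to the microRNA or to the neighbour from position.

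Ranked by the lower of their 2 percentiles, the marked genes with the highest peaks began with mir-2493 (chr3R:15130754-15130859) in CG42788. It had 5.17 fold in replicate 1 and 3.75 fold in replicate 2, with summits 785 and 812 bp from the hairpin. mir-954 followed, then mir-4977 in Eaf, with 3.47 and 3.39 fold. mir-100 and mir-let7 came next, before mir-31a, mir-193 and 6 genes of the mir-309 cluster. mir-1003 in CG6695 had 3.17 and 2.64 fold, and mir-4912 in Fnta had 3.17 and 2.63 fold. Among these 15 genes, mir-100 and mir-let7 were the only ones whose highest peak reached no end of a protein-coding gene in either list.

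**Figure D5:**
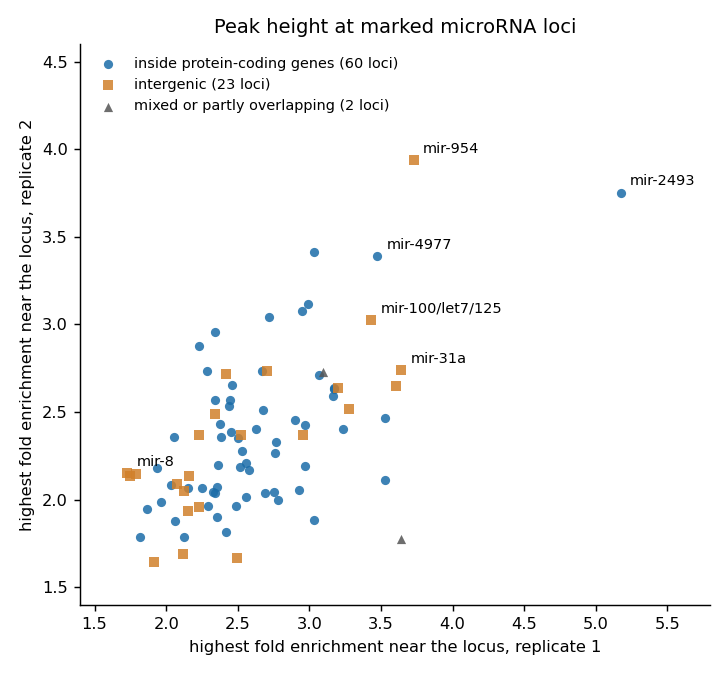
Highest fold of any peak within 2 kb of each of the 85 marked loci, replicate 1 on the horizontal and replicate 2 on the vertical axis, for 60 intragenic loci (blue circles), 23 intergenic loci (orange squares) and 2 mixed or partly overlapping loci (grey triangles). The loci run from 1.73 to 5.17 in replicate 1 and from 1.65 to 3.94 in replicate 2, and mir-2493, mir-954, mir-4977 and the let-7 complex lie at the upper right.

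Peak height near microRNA genes was close to that of the rest of each list. In replicate 1 the 127 peaks within 2 kb of a microRNA gene had a median fold of 2.38 (1.64 to 5.17), and the 14298 other peaks on the arms had 2.43 (1.49 to 22.1). In replicate 2 the 235 peaks near microRNA genes had a median of 2.04 (1.49 to 3.94), and the 26123 others had 2.07 (1.42 to 23.0). Peaks near microRNA genes overlapped a peak of the other list in 78.0% of cases in replicate 1 and 43.4% in replicate 2, against 79.2% and 44.7% of the other peaks.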

How the data were processed

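H3K27ac CUT&RUN peak lists of 2 replicates were analysed. Bowtie2, MACS2 and dm6 are listed in the submitters' processing notes, with versions, settings and any control library not given in the sources used here. Peaks were called per replicate. In the deposited files, the fold (a ratio over local background), the -log10 p and -log10 q and the score are the caller's, and the authors' positions were turned into 1-based coordinates. Replicate 1 lists peaks from a deposited -log10 q of 2.01, and replicate 2 from 2.04. Folds of the 2 lists are set side by side as descriptions, and genes were ranked by the lower of their within-list percentiles.

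Gene spans came from RefSeq's Release 6 table, which gives no strand, and 2 listed names were matched through a synonym (mir-ban and mir-bft). A peak had to share at least 1 bp with a window, as counted in Python 3.11.15, pandas 2.3.3 and numpy 2.4.6, and the interval routines were tested on simulated data. Named genes are the members of 7 literature lists, the 15 marked genes with the highest minimum percentile, each marked intergenic locus, and the 5 hosts and 5 loci with the most microRNA genes. Members and lists were chosen with earlier results of these data known. No test was made, since there is 1 group. The windows, peak thresholds, locus gap, replicate overlap and each replicate left out were varied as alternatives.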

Additional observations from a re-analysis of the deposited data

How the results depend on the processing

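The main counts were 106 marked microRNA genes, 68 intragenic, 36 intergenic and 85 loci. With the gene span alone they were 15, 12, 3 and 13, and with 500 bp on each side 41, 34, 6 and 36. With 1 kb they were 59, 46, 12 and 53, and with 5 kb 166, 108, 56 and 131. A -log10 q minimum of 5 gave 76, 54, 21 and 61. The 7230 peaks of each list with the largest -log10 p gave 47, 29, 17 and 35, and a peak in either list gave 167, 111, 54 and 136. Intergenic genes with no protein-coding gene within 2 kb gave 7. Leaving out each replicate in turn gave 116 to 157 genes, 74 to 105 intragenic genes, 40 to 50 intergenic genes and 91 to 130 loci, the higher value being replicate 2 alone. Genes with a peak away from coding gene ends numbered 58, and 67 to 103 with a replicate left out. Overlapping replicate peaks, summits in place of peak edges, locus gaps of 1 and 50 kb, partial overlap with a host, a 1 kb gene end and the whole noncoding gene moved each count by less than 1.5 times. The counts depend on the window and on the length of the lists, and peaks below the caller's threshold cannot be seen. The 2 replicates give no error for a share. No paired analysis was possible because there is only 1 group.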

Other observations

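The symbols mir-1003 to mir-1016, a range that includes many short-intron microRNAs (mirtrons, whose hairpin is an entire spliced intron), held 14 genes, all intragenic. Of these 8 (57.1%) were marked, against 41.0% of all intragenic microRNA genes and 33.9% of positions inside protein-coding genes. On the arms other than X, 49.6% of intragenic microRNA genes were marked, and mir-1007 of this range lies on X. Among intergenic microRNA genes, 2 of 18 (11.1%) with a symbol number of 2000 or above were marked, and 34 of 74 (45.9%) of those with a lower number or a name. Chromosome X held 8 of the 18 (1 marked) and 11 of the 74 (0 marked), and on the other arms 1 of 10 and 34 of 63 were marked. Among intragenic ones the values were 39 of 88 (44.3%) and 29 of 78 (37.2%). These groupings by symbol were chosen after the data had been seen, and no difference between them was tested.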
